A study of Mus musculus with 3 samples.

Results

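Mitral and tufted neurons are the glutamatergic output cells of the olfactory bulb. Their dendrites collect the input of olfactory sensory axons in the glomeruli, and their axons carry it to the olfactory cortex. Cdhr1 (a protocadherin-like adhesion molecule), the T-box transcription factors Eomes and Tbx21, and Doc2g (a protein with C2 domains) are widely used to mark them. Nuclei carrying these markers were looked for in 3 droplet libraries of single nuclei labelled as mouse prefrontal cortex (PFC). A nucleus was taken as marker-positive if it had at least 2 UMIs (counted molecules) of the 4 markers together, at least 1 UMI of the vesicular glutamate transporters Slc17a7 or Slc17a6, and no UMI of the GABA neuron genes Gad1, Gad2 and Slc32a1. The rule found 916 nuclei among 43464 that passed the filters of 200 detected genes and less than 10% of counts from mitochondrial genes.

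The C57BL/6 library pooled the PFC of 5 wild-type mice and held 14630 kept nuclei. The Nav1 KO library pooled 4 mice of the same strain, in which CRISPR editing of embryos had removed part of the first exon of Nav1, and held 14056 kept nuclei. The BTBR library (BTBR T+ Itpr3tf/J, an inbred strain, with no genotype label and no number of mice given) held 14778. All mice were males of 6 to 8 weeks. For C57BL/6 and Nav1 KO the study's methods describe a sort of nuclei with and without NeuN in set proportions before capture, a step that can set the share of any neuron, and for BTBR the sort is not given in the sources used here. The kept nuclei held 38704723 counts in C57BL/6, 50965774 in Nav1 KO and 48948184 in BTBR. With 1 library in each group no test between groups was possible, so shares, levels and ratios between libraries are given with exact 95% intervals that cover counting error only. The counts come from the 3′ ends of transcripts, outside the deleted exon, so the Nav1 level does not check the KO label.

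The marker-positive nuclei were far less frequent in the C57BL/6 library than in the others. C57BL/6 had 71 of them, 0.485% of its nuclei (Clopper-Pearson interval 0.379% to 0.612%). Nav1 KO had 422, or 3.0% (2.73% to 3.30%), and BTBR had 423, or 2.86% (2.60% to 3.14%). The ratio to C57BL/6 was 6.19 (4.8 to 8.07) in Nav1 KO and 5.90 (4.58 to 7.70) in BTBR, and that of BTBR to Nav1 KO was 0.953 (0.831 to 1.09). These shares rest on the counts that chose the nuclei and are a description.

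The limit of 2 UMIs lay close to the background in C57BL/6. Among glial nuclei, which should lack all 4 markers, 6 of 1099 in C57BL/6 had 2 or more marker UMIs, or 0.546% (0.201% to 1.18%). The share was 0.588% (0.237% to 1.21%) in Nav1 KO and 1.56% (0.873% to 2.55%) in BTBR. As a share of glutamatergic nuclei alone, marker-positive nuclei made up 0.979% (0.765% to 1.23%) in C57BL/6, 5.88% (5.35% to 6.45%) in Nav1 KO and 5.95% (5.41% to 6.53%) in BTBR. In C57BL/6 this interval overlapped that of the glia, and the glia were shallower, with medians of 1308, 1678 and 1383.5 UMIs against 4182, 4287 and 3647 UMIs in the marker-positive nuclei of C57BL/6, Nav1 KO and BTBR. GABA nuclei, with no Slc17a7 or Slc17a6 UMI, reached 2 marker UMIs in 2 of 651 (0.307%), 16 of 835 (1.92%) and 31 of 983 (3.15%), so that these RNAs were also seen more often in GABA nuclei of Nav1 KO and BTBR than in those of C57BL/6, with no test across libraries. At 4 or more marker UMIs the C57BL/6 and Nav1 KO glia held none (upper bounds 0.335% and 0.309%), 4 BTBR glial nuclei remained (0.415%, 0.113% to 1.06%), and of the GABA nuclei 0, 1 and 1 did.

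With that limit the share of marker-positive nuclei was 0.0957% (14 nuclei) in C57BL/6, 1.51% (212) in Nav1 KO and 0.886% (131) in BTBR. The ratio to C57BL/6 widened to 15.8 (9.19 to 29.3) in Nav1 KO and 9.26 (5.33 to 17.4) in BTBR, and BTBR fell below Nav1 KO, at a ratio of 0.588 (0.469 to 0.734). The condition of no GABA gene UMI left out 166 BTBR and 146 Nav1 KO nuclei with 4 or more marker UMIs. Without that condition the ratio of BTBR to Nav1 KO at 2 or more marker UMIs was 1.12 (1.01 to 1.23). When every nucleus was first thinned at random to 1000 UMIs, 14, 130 and 114 nuclei met the rule, 0.114% (0.0626% to 0.192%), 1.02% (0.849% to 1.20%) and 0.899% (0.742% to 1.08%) of the nuclei of that depth in C57BL/6, Nav1 KO and BTBR. Glia thinned in the same way met the limit of 2 in 0.278% (0.0337% to 1.00%), 0.307% (0.0634% to 0.896%) and 0.750% (0.244% to 1.74%). In each library the intervals of the nuclei meeting the rule and of the glia overlapped after thinning. The former are shares of nuclei of all types and the latter of glia alone, so their sizes are not directly comparable.

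**Figure D1:**
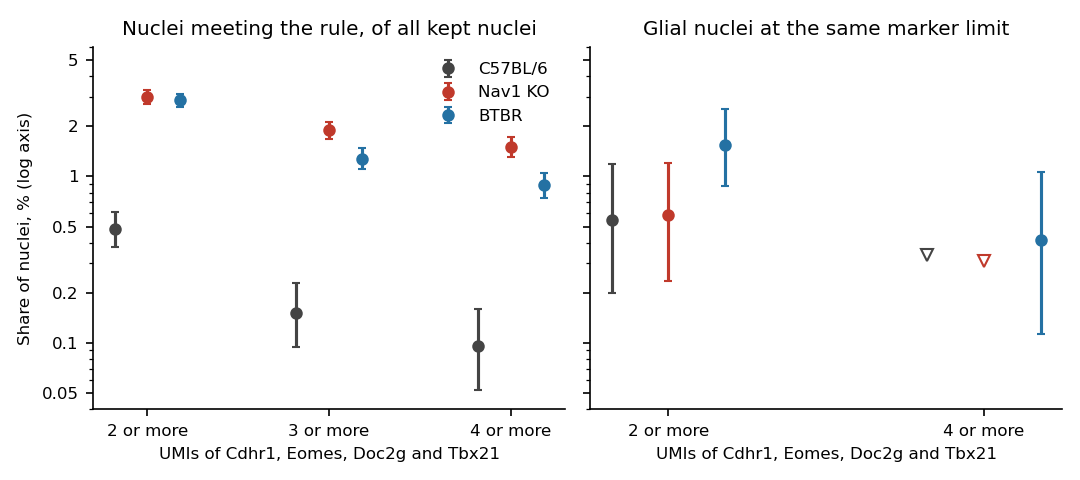
Share of nuclei (percent, log axis) at a minimum number of UMIs of Cdhr1, Eomes, Doc2g and Tbx21 in the 3 libraries, for nuclei meeting the rule (left) and glial nuclei (right). Points are shares with exact 95% intervals, and open triangles are upper bounds where no glial nucleus reached the limit. At 2 or more UMIs C57BL/6 (0.485% of all its kept nuclei) sits near its glia (0.546% of glial nuclei), while Nav1 KO (3.0%) and BTBR (2.86%) lie above theirs (0.588% and 1.56%), with no correction for the lower depth of glia. The left shares are of all kept nuclei and the right ones of glia, so their sizes are not directly comparable. After thinning to 1000 UMIs the intervals of both kinds overlapped in each library, as in BTBR (0.742% to 1.08%, glia 0.244% to 1.74%). These are again shares of all nuclei and of glia, so the overlap does not place the nuclei meeting the rule at the level of glia.

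The libraries also differed in which markers chose the nuclei. Doc2g gave 174 of the 213 marker UMIs in C57BL/6 (81.7%), 1478 of 2332 in Nav1 KO (63.4%) and 1047 of 1796 in BTBR (58.3%). Cdhr1 gave 27, 558 and 584 UMIs, Eomes 11, 261 and 147, and Tbx21 1, 35 and 18 in C57BL/6, Nav1 KO and BTBR. In C57BL/6 51 of the 71 nuclei (71.8%) were chosen by Doc2g alone, against 28.0% in Nav1 KO and 26.2% in BTBR. A Doc2g UMI was also found in 3.64% of glial nuclei in C57BL/6, 5.04% in Nav1 KO and 8.61% in BTBR, and in 7.67%, 14.1% and 15.2% of all kept nuclei, whereas Cdhr1 was seen in none of the 1099 C57BL/6 glial nuclei and in 1.93% and 3.53% of those of Nav1 KO and BTBR. Without Doc2g in the rule, 12, 215 and 181 nuclei remained, and the ratio to C57BL/6 was 18.6 in Nav1 KO and 14.9 in BTBR.

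Many of the marker-positive nuclei stood at the limit itself. Of the 916, 438 (47.8%) had exactly 2 marker UMIs, 121 had 3, 239 had 4 to 9 and 118 had 10 or more. The nuclei with exactly 2 made up 69.0% of the C57BL/6 members (49), 36.7% of Nav1 KO (155) and 55.3% of BTBR (234), and the single C57BL/6 nucleus with 10 or more had 11. Across all 916 nuclei 370 had UMIs of a single marker, 388 of 2, 143 of 3 and 15 of all 4.

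Genes that the rule did not use were set beside the name. They were chosen with earlier results of these data known, and the limit of 4 UMIs was added after seeing the data. They are therefore a description and no independent check of the name. Reln, which encodes a secreted glycoprotein that mitral cells make, stood at 489, 465 and 491 CPM (counts scaled to the total of the same nuclei, times 1e+06) in the nuclei with 4 or more marker UMIs of C57BL/6, Nav1 KO and BTBR, against 19.7, 14.4 and 19.9 CPM in the other glutamatergic nuclei, which had none of the markers (6588, 5792 and 5608 nuclei). Tshz2, a zinc finger factor also found in layer 5 near-projecting neurons of the cortex, stood at 531, 574 and 642 CPM against 29.1, 38.1 and 41.9 CPM. Ms4a15, a membrane-spanning 4A protein gene, stood at 154, 202 and 171 CPM against 0.217, 1.59 and 0.930 CPM. In all 3 libraries these genes lay more than 10-fold above the other glutamatergic nuclei, and the 3 libraries lay close to each other. Gria3, an AMPA receptor subunit gene, went the other way, at 419, 288 and 453 CPM against 1075, 956 and 1341 CPM.

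The nuclei at the limit looked different. With exactly 2 marker UMIs, Reln was at 40.5, 61.9 and 51.4 CPM in C57BL/6, Nav1 KO and BTBR, Tshz2 at 4.05, 64.2 and 89.6 CPM, Ms4a15 at 0, 20.6 and 4.03 CPM, and Gria3 at 1037, 958 and 1475 CPM. Nuclei just outside the rule, with 1 marker UMI, had Reln at 18.9, 20.7 and 25.0 CPM and Tshz2 at 31.0, 53.6 and 53.7 CPM. By these genes the 2-UMI nuclei were nearer to the other glutamatergic nuclei than to those with 4 or more UMIs. The data therefore go against the name of mitral and tufted neurons for most of the 2-UMI nuclei, which were 69.0% of the members in C57BL/6, 55.3% in BTBR and 36.7% in Nav1 KO. Counts of called genes are therefore given at both limits.

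**Figure D2:**
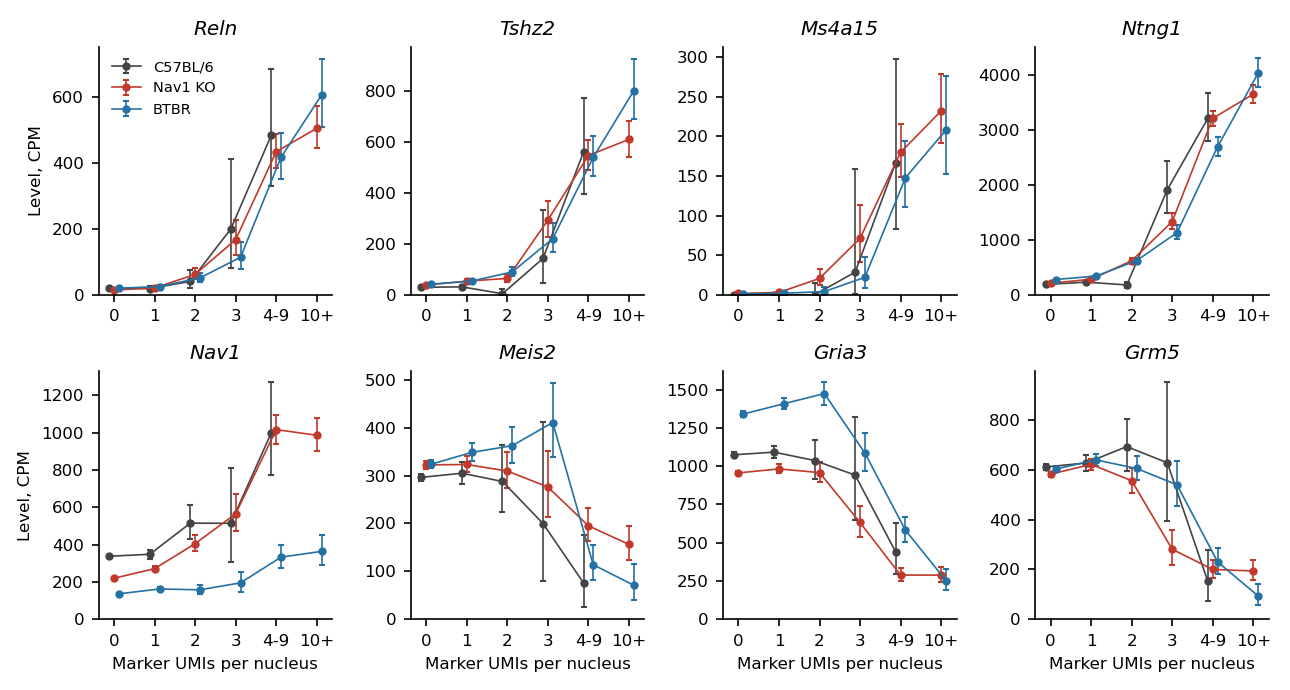
Level (CPM, with exact Poisson 95% intervals) of 8 genes that the rule did not use, by the number of marker UMIs in a nucleus, in glutamatergic nuclei of each library. Classes with fewer than 5 nuclei are not drawn (C57BL/6, 10 or more). Reln, Tshz2, Ms4a15 and Ntng1 are far lower at 2 UMIs than from 4, although above the nuclei without markers at 2 in Nav1 KO and BTBR, Meis2, Gria3 and Grm5 are lower from 4, and Nav1 stays lower in BTBR than in the other libraries.

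To see which other genes set these nuclei apart, their counts were summed in each library and compared with the sum of the other glutamatergic nuclei of the same library in edgeR, with the library as a block. The 9 genes of the rule were left out of the calls and counts, and those of them that passed the filter on low counts stayed in the fit and in the adjustment of p. A gene was called at a Benjamini-Hochberg adjusted p under 0.05 and at least a 2-fold difference. The 3 pairs of sums come from libraries of different genotype or strain. edgeR draws the spread of each gene toward that of all genes, so a small p can stand beside libraries that differ. Olfr112, for example, had log2 ratios of 3.86, 5.63 and 1.23 in C57BL/6, Nav1 KO and BTBR, with an SE of 0.34. Of 15871 genes, 439 (2.77%) were higher and 64 (0.403%) were lower in the marker-positive nuclei. With 4 or more UMIs, 811 (5.19%) of 15625 genes were higher and 698 (4.47%) lower, and with exactly 2 UMIs 23 were higher and 5 lower. Without the Nav1 KO library 176 genes were higher and 16 lower at the limit of 2 UMIs, and without BTBR 346 and 45. Leaving out the C57BL/6 library gave 484 and 86 at 2 UMIs and 784 and 678 at 4 or more. Of the 503 genes called with all libraries, 179 were called again without Nav1 KO, 331 without BTBR and 477 without C57BL/6. Marker-positive nuclei were also deeper than the other glutamatergic nuclei (median 4182, 4287 and 3647 against 2422, 3077 and 2715.5 UMIs), and within nuclei of 2000 to 8000 UMIs 481 genes were higher and 99 lower.

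The 12 genes listed as bulb projection neuron markers outside the rule, a list chosen with earlier results of these data known, were mostly higher. Of the 11 tested, 8 were higher and none lower, with a median log2 fold change of 3.18 against −0.02 over all genes, and at 4 or more UMIs 8 were higher and 1 lower, with a median of 3.98 against −0.07. Over all genes 2.77% were higher and 0.403% lower at 2 UMIs, and 5.19% and 4.47% at 4 or more. The shorter lists for tufted and for mitral cells each had 1 of 3 genes higher at both limits, Barhl2 and Spp1, with medians of −0.02 and 0.06 at 2 UMIs. Reln rose by 3.56 (SE 0.11) on the log2 scale and Spp1, the secreted phosphoprotein osteopontin, by 3.18 (SE 0.24). Barhl2, a homeobox factor, rose by 4.65 (SE 0.61), Lhx1, a LIM homeobox factor, by 3.73 (SE 0.86), and Nmb, the precursor of neuromedin B, by 1.64 (SE 0.21), all with edgeR adjusted p of at most 3.2e-04. Barhl2 had 1, 25 and 9 counts in C57BL/6, Nav1 KO and BTBR. Among the subsets described below, Barhl2 was at 61.2 CPM in subset 3 against 1.51 CPM in the rest. Lhx1 was at 100 CPM in subset 7 against 0.689 CPM in the rest. Shisa3 and Lbhd2 were the other called members beside Ms4a15. Nmb was not above the other nuclei in C57BL/6, at 5.66 against 6.4 CPM from 2 counts, and rose in Nav1 KO (34.2 against 7.98 CPM) and BTBR (20.6 against 7.38 CPM). Tbr1, a T-box factor of mitral cells that cortical projection neurons also express, did not pass (−0.14, SE 0.15), and was lower at 4 or more UMIs, at 27.9, 21.0 and 13.8 CPM against 38.8, 34.5 and 39.6 CPM in C57BL/6, Nav1 KO and BTBR. Kcng1 and Sertm1, listed for mitral cells, were not called at either limit. Cck, the cholecystokinin precursor listed for tufted cells, was at 235, 275 and 247 CPM against 200.2, 260 and 265 CPM and was not called (−0.02, SE 0.09).

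The 15 genes with the highest fold changes that went the same way in all 3 libraries were Duox2, Tafa3, Ms4a15, Vmn1r209, Ppm1j, Vmn1r208, Ush1g, Olfr115, Cdh23, Olfr112, Olfr114, Olfr116, Rab37, Olfr113 and Olfr111, after 2 unnamed gene models were passed over. Ms4a15 had the tightest estimate of the first 5, a log2 fold change of 6.17 (SE 0.21, edgeR adjusted p = 2.9e-187), from 12, 266 and 109 counts in the marker-positive nuclei of C57BL/6, Nav1 KO and BTBR. Rab37, a small GTPase of the secretory pathway, had 7, 283 and 127 counts and a log2 fold change of 4.98 (SE 0.18). Ppm1j, a protein phosphatase gene, had 7, 162 and 68 counts and a log2 fold change of 5.59 (SE 0.26). Duox2, a dual oxidase gene, led by fold (6.76, SE 0.94), but on 2, 20 and 1 counts. Cdh23 and Ush1g, best known from the hair cells of the inner ear, where they encode a cadherin of the tip link and a scaffold protein, had log2 fold changes of 5.07 (SE 0.44) and 5.29 (SE 0.46).

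**Figure D3:**
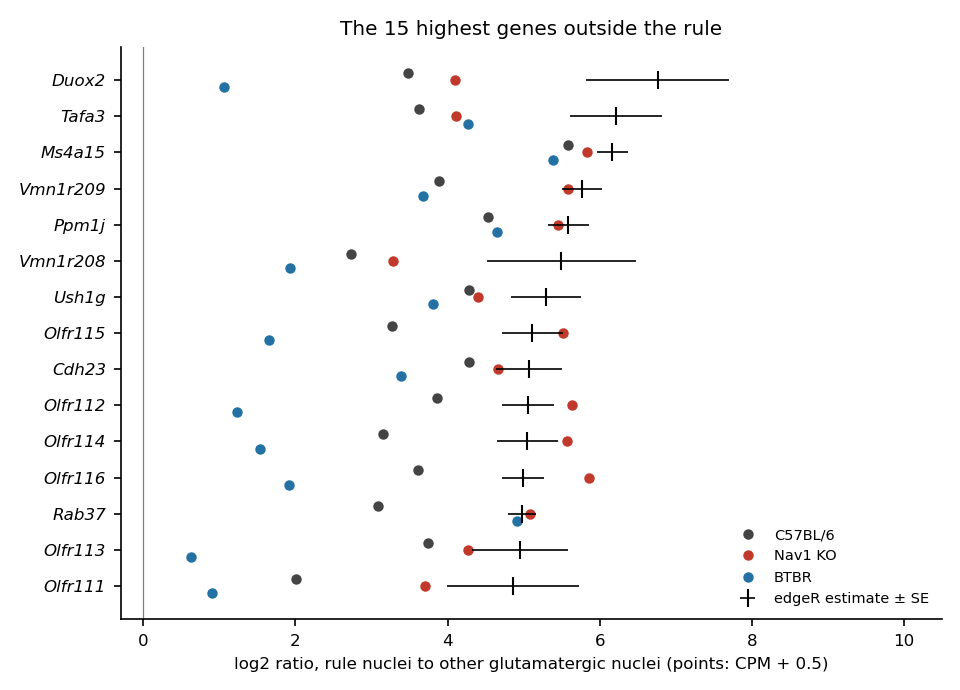
The 15 genes outside the rule with the highest log2 fold change between marker-positive and other glutamatergic nuclei. Colored points are the log2 ratio of CPM + 0.5 within each library, and black marks are the edgeR estimate with its SE. The added 0.5 lowers the points of genes with few counts. The 3 libraries lie close together for Ms4a15, while each Olfr gene is highest in Nav1 KO and lowest in BTBR.

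Several of these genes are neighbors on the mm10 genome. Tafa3, which encodes a small secreted protein, lies on chromosome 3 from 104767406 to 104781840 on the minus strand, and Ppm1j from 104781056 to 104786018 on the plus strand, so that their annotated starts overlap. The 6 olfactory receptor genes Olfr111 to Olfr116 fill chromosome 17 from 37508030 to 37627199. All 6 were called higher, and none of the other 26 olfactory receptor genes among the 32 tested was called at 2 UMIs, where 2.77% of all genes were higher. Of 30 tested at 4 or more UMIs 7 were higher, the 6 and Olfr259, and Olfr78 and Olfr560 were lower, beside 5.19% and 4.47% of all genes. Vmn1r206, Vmn1r207-ps, Vmn1r208 and Vmn1r209, members of the V1R family of vomeronasal receptors, lie on chromosome 13 from 22617456 to 22809682, and all 4 were called higher of 6 tested V1R genes. Most of their counts came from Nav1 KO. Vmn1r209 had 3, 301 and 15 counts in the marker-positive nuclei of C57BL/6, Nav1 KO and BTBR, and Vmn1r206 and Vmn1r207-ps had none in those of C57BL/6. Of the V2R family (Vmn2r) none of 12 tested genes was called at 2 UMIs, and 4 of 10 were lower at 4 or more. Genes of these families are near copies of each other and some of them overlap, so the split of reads among them is uncertain and their sums are given.

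The receptor cluster on chromosome 17 was lowest in BTBR. In the marker-positive nuclei the summed level of its 6 genes was 108 CPM (76.1 to 148) in C57BL/6, 275 CPM (254 to 298) in Nav1 KO and 10.8 CPM (6.63 to 16.8) in BTBR. In nuclei with 4 or more marker UMIs the summed level of Olfr111 to Olfr116 was 503 CPM (352 to 696) in C57BL/6, 507 CPM (466 to 550) in Nav1 KO and 22.5 CPM (12 to 38.5) in BTBR. BTBR was at 0.101 (0.0556 to 0.178) of C57BL/6 in the marker-positive nuclei and at 0.0447 (0.0218 to 0.0863) at 4 or more UMIs. The ratio of Nav1 KO to C57BL/6, which are of 1 strain, was 2.56 (1.85 to 3.65) in the marker-positive nuclei, 1.01 (0.719 to 1.45) at 4 or more UMIs and 0.485 (0.357 to 0.656) in the other glutamatergic nuclei. In the other glutamatergic nuclei the sum was 6.83, 3.32 and 2.04 CPM in C57BL/6, Nav1 KO and BTBR. The reads of BTBR were counted against the same mm10 reference, which is a C57BL/6J sequence.

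The cluster on chromosome 13 was highest in Nav1 KO. Its sum was 11.3 CPM (3.08 to 29.0) in C57BL/6, 173 CPM (157 to 192) in Nav1 KO and 17.4 CPM (11.9 to 24.5) in BTBR in the marker-positive nuclei. Vmn1r206 to Vmn1r209 summed to 55.9 CPM (15.2 to 143) in C57BL/6, from 4 counts, 271 CPM (242 to 303) in Nav1 KO and 31.1 CPM (18.5 to 49.2) in BTBR at 4 or more UMIs. Nav1 KO lay above BTBR, with a BTBR to Nav1 KO ratio of 0.115 (0.0672 to 0.185), while the interval of BTBR to C57BL/6 covered 1 (ratio 0.557, 0.184 to 2.26). Nav1 KO also lay above C57BL/6, at a ratio of 4.85 (1.88 to 17.9) at 4 or more UMIs, 15.3 (5.94 to 56.5) in the marker-positive nuclei and 13.1 (5.38 to 41.6) in the other glutamatergic nuclei. In the other glutamatergic nuclei Nav1 KO was also highest, at 3.56 CPM against 0.271 in C57BL/6 and 0.698 in BTBR.

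The lowest genes were near the detection limit. All 10 of them, among them Trim56, Pkd1l3, Fastkd5, Carmn, Slco1a4, Acot10, Llgl2, Eif4ebp1 and Ly6c1, had 3 counts or fewer in the 916 nuclei, and the other glutamatergic nuclei, summed over the 3 libraries, had at most 4.08 CPM of any of them. Trim56 had no count, which puts it at least 2.58-fold lower when set against a floor of 3 counts over all 3 libraries. Eif4ebp1, which encodes a repressor of translation initiation, had 3 counts and a ratio of 0.165 (0.0339 to 0.489) of summed CPM. DESeq2 called 6 genes lower where edgeR called 64.

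Some markers of cortical neurons were called lower at the stricter limit. Of the 13 listed genes of cortical excitatory layers, 1 was higher (Ccn2) and none lower in the marker-positive nuclei, with a median of −0.30, where 2.77% of all genes were higher and 0.403% lower. At 4 or more UMIs 5 were lower, among them Neurod6, Lamp5, Otof and Fezf2, Cux2 and Ccn2 were higher and 6 were not called (4.47% of all genes lower and 5.19% higher), with a median of −0.80 against −0.07 over all genes. Neurod6, a bHLH factor of cortical pyramidal neurons, was at 21.9 CPM in Nav1 KO and 8.65 CPM in BTBR at 4 or more UMIs against 57.2 and 43.1 CPM, but at 55.9 against 47.6 CPM in C57BL/6, from 4 counts. Cux2, known from the upper cortical layers, was at 210, 291 and 253 CPM against 128, 116 and 110 CPM in C57BL/6, Nav1 KO and BTBR. At 2 or more UMIs Ccn2 was below the other nuclei in C57BL/6, at 8.49 against 19.9 CPM from 3 counts. It was above them in Nav1 KO (106 against 32.2 CPM) and BTBR (62.4 against 19.0 CPM).

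Apart from the Cajal-Retzius list, of which all tested genes were higher, few markers of other bulb and brain cells were called. Of 9 bulb interneuron genes, Calb2 was higher and 8 did not pass at 2 UMIs. Calb2 had no count in the C57BL/6 members, and rose in Nav1 KO (17.7 against 4.52 CPM) and BTBR (14.1 against 4.30 CPM). At 4 or more UMIs Calb2 and Tshz1 were higher and Meis2, the most abundant gene of the list, was lower, at 69.9, 178 and 96.9 CPM against 296, 322 and 324 CPM in C57BL/6, Nav1 KO and BTBR. Over all genes 5.19% were higher and 4.47% lower at that limit. None of the 6 ensheathing glia genes, 5 astrocyte genes, 5 oligodendrocyte genes, 5 microglia genes or 7 striatal medium spiny neuron genes was called at either limit. With 2.77% of all genes higher and 0.403% lower at 2 UMIs, a count of 0 in lists this short says little. Vcan, a proteoglycan gene listed for oligodendrocyte precursors, was higher at both limits, at 65.1, 43.5 and 46.1 CPM against 16.2, 13.6 and 23.3 CPM in C57BL/6, Nav1 KO and BTBR. Of the 6 cortical interneuron genes Sst, and of the 2 immature neuron genes Sox11, was lower at 4 or more UMIs and not called at 2. Of 4 tested Cajal-Retzius cell genes all 4 were higher at both limits, namely Reln, Trp73, Ndnf and Calb2. Their median log2 fold change was 2.35 at 2 UMIs and 3.01 at 4 or more, beside 2.77% and 5.19% of all genes higher. Reln is also a marker of mitral cells, and Calb2 is also in the bulb interneuron list. Trp73, a p53 family factor that is absent from most cortical neurons, had 0, 9 and 7 counts.

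Summed levels of some of these lists also differed between the whole libraries. Over all kept nuclei the 6 ensheathing glia genes summed to 168 CPM in C57BL/6, 297 in Nav1 KO and 209 in BTBR, led by Npy, Apod and Npy at 115, 142 and 113 CPM, of which Npy is also a gene of cortical interneurons. The 9 bulb interneuron genes summed to 511, 708 and 711 CPM, led by Meis2 in all 3, and the 7 medium spiny genes to 1004, 651 and 728 CPM, led by Pde10a. No gene of these lists was at 0 in any library. The part of dissection or sorting in the share of marker-positive nuclei was not tested, and either of them cannot be told apart from genotype or strain with 1 library each.

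Genes of synaptic transmission were described next, since output neurons of the bulb receive sensory, GABAergic and modulatory input. Of 22 listed glutamate receptor genes, 4 were higher and none lower in the marker-positive nuclei, beside 2.77% and 0.403% of all genes. Grin2c, an NMDA receptor subunit, rose by 2.03 (SE 0.20) on the log2 scale, Grik1, a kainate receptor subunit, by 2.30 (SE 0.15), and the metabotropic receptor Grm8 by 1.01 (SE 0.10), each with edgeR adjusted p of at most 3.1e-20. At 4 or more UMIs the same 4 were higher and 7 were lower, namely Gria3, Grin2a, Grin2b, Grik2, Grik4, Grm3 and Grm5, beside 5.19% and 4.47% of all genes. Among them Grm5, a metabotropic receptor, was at 154, 197 and 176 CPM against 611, 582 and 603 CPM in C57BL/6, Nav1 KO and BTBR. Gria2 was the most abundant of the list and was not called.

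Some receptors for modulators were called lower at the stricter limit. Of 12 listed genes none was called at 2 UMIs, where 2.77% of all genes were higher and 0.403% lower, and 7 were lower at 4 or more (Chrm1, Chrm2, Chrm3, Htr1b, Htr2c, Crhr1 and Oxtr), with a median log2 fold change of −1.70, beside 4.47% of all genes. Among the 5 that were not called, Adra1a was at 0.27 (SE 0.35) and Htr2a at 0.16 (SE 0.26). Chrm1, a muscarinic acetylcholine receptor, was at 14.0, 9.62 and 8.65 CPM against 33.4, 35.1 and 37.9 CPM in C57BL/6, Nav1 KO and BTBR. Oxtr had no count in these nuclei. Among 12 GABA-A receptor genes none was called at 2 UMIs and 3 (Gabra5, Gabrg3 and Gabrd) were lower at 4 or more, beside the same shares of all genes at each limit.

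Among channel genes, Kcna2 and Kcnc1, subunits of fast voltage-gated potassium channels, were higher at both limits. Their log2 fold changes were 1.03 (SE 0.10) and 1.23 (SE 0.09) at 2 UMIs and 1.69 (SE 0.12) and 2.00 (SE 0.12) at 4 or more, and Kcnc1 was at 181, 405 and 247 CPM against 121, 121 and 110 CPM in C57BL/6, Nav1 KO and BTBR. The other 14 listed potassium and HCN channel genes were not called at 2 UMIs, where 2.77% of all genes were higher and 0.403% lower. Kcna1, Kcnc2, Kcnip4 and Kcnq5 were lower at 4 or more, beside 5.19% of all genes higher and 4.47% lower. None of 15 sodium and calcium channel genes was called at either limit, a count near these shares. Gjd2, the connexin of neuronal gap junctions, which couple mitral cells of a glomerulus, rose by 3.38 (SE 0.48), from 1, 27 and 13 counts, and by 4.13 (SE 0.48) at 4 or more UMIs.

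Of 25 tested axon guidance genes 3 were higher and none lower, beside 2.77% and 0.403% of all genes. Ntng1, netrin-G1, a membrane-anchored ligand found on mitral cell axons, had the most precise change of them, 2.65 (SE 0.08), and 3.68 (SE 0.12) at 4 or more UMIs. It stood at 914, 2103 and 1509 CPM in the marker-positive nuclei of C57BL/6, Nav1 KO and BTBR against 187, 209 and 277 CPM. Sema3a, a secreted semaphorin, rose by 1.70 (SE 0.14), and by 2.55 (SE 0.17) at 4 or more UMIs, and Unc5b was the third. At 4 or more UMIs Nrp1 and Epha3 were also higher, and Slit1, Slit2, Slit3 and Epha4 were lower. Among transcription factors of the T-box, LIM and Ebf groups outside the rule 4 of 9 were higher and none lower at 2 UMIs, of which Ebf1 (3.77, SE 0.13) had the most counts, 49, 255 and 269. With 4 or more UMIs 5 were higher and 3 lower (Tbr1, Lmo3 and Lmo4), beside 5.19% and 4.47% of all genes, and Ebf1 was at 4.58 (SE 0.16).

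**Figure D4:**
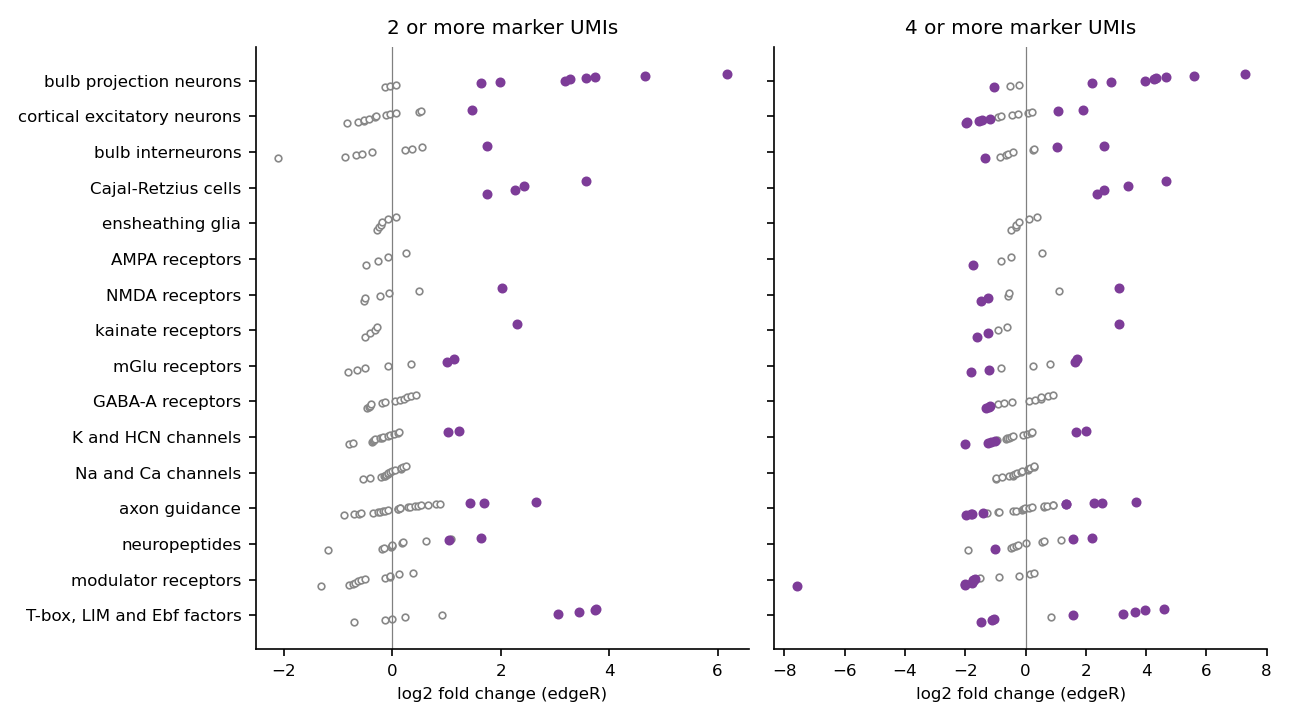
edgeR log2 fold change of each listed gene between marker-positive and other glutamatergic nuclei at 2 or more (left) and 4 or more (right) marker UMIs. Filled points are called genes and open points are not called, and the horizontal scales differ. The point at −7.59 is Oxtr, which has no count there, so that its fitted value is no bound. More genes of the cortical, receptor and guidance lists are called lower at 4 or more UMIs.

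Nav1, the gene edited in the KO mice, was itself higher in these nuclei by its 3′ counts. It stood at 600 CPM in C57BL/6, 725 in Nav1 KO and 221 in BTBR against 337, 219 and 135 CPM in the other glutamatergic nuclei, a log2 fold change of 1.07 (SE 0.09, edgeR adjusted p = 3.1e-32). At 4 or more UMIs it stood at 936 CPM in C57BL/6, 1003 in Nav1 KO and 344 in BTBR. The Nav1 KO and C57BL/6 libraries overlapped there (ratio 1.07, 0.837 to 1.39), whereas in the other glutamatergic nuclei Nav1 KO was at 0.651 (0.626 to 0.676) of C57BL/6. BTBR was lower than C57BL/6 in both kinds of nuclei, at 0.368 (0.277 to 0.493) and 0.402 (0.383 to 0.422). Of the other navigator genes Nav2 was higher at 4 or more UMIs and Nav3 was not called.

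Between libraries, the marker-positive nuclei were compared by the ratio of CPM, for genes that reached 50 CPM on one side and 20 counts on the opposite one. A gene was counted if it differed at least 2-fold with an interval off 1. In the small C57BL/6 set 20 counts are 56.6 CPM, so genes low there were left out even where the other library was far higher. Among those were Vmn1r209 (8.49 CPM in C57BL/6 against 134 in Nav1 KO) and Ccn2 (8.49 against 106 in Nav1 KO and 62.4 in BTBR). Genes high in C57BL/6 and far lower in the other library could stay in. The filter thus sets part of the split between higher and lower genes. Of 3601 genes, 42 (1.17%) were higher and 120 (3.33%) lower in Nav1 KO than in C57BL/6. With the ratios divided by TMM factors, which raises the median ratio from 0.885 to 0.959, the split was 71 higher and 66 lower. In BTBR 35 (0.973%) of 3596 genes were higher and 118 (3.28%) lower than in C57BL/6. The same rule in the other glutamatergic nuclei counted 9 higher and 7 lower for Nav1 KO and 33 and 42 for BTBR. The C57BL/6 members are mostly nuclei with 2 marker UMIs, so the ratios compare nuclei of unlike make-up, and both comparisons share the C57BL/6 nuclei.

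Among the genes that passed this filter, those highest in Nav1 KO were Rspo3, Apoe, Thsd7a, Zbtb20 and Rasa4. Rspo3, an R-spondin that enhances Wnt signaling, was at 276 against 56.6 CPM, a ratio of 4.88 (3.13 to 8.05), and at 3.16 (1.65 to 6.95) at 4 or more UMIs. Apoe, the apolipoprotein of glia, had a ratio of 3.73 (2.75 to 5.19), and of 2.04 (1.97 to 2.12) in the other glutamatergic nuclei. Thsd7a and Zbtb20 fell to 1.93 (1.21 to 3.28) and 2.27 (1.54 to 3.50) at 4 or more UMIs, and Rasa4 to 1.45 (0.851 to 2.68). The lowest that passed the filter were Iqgap2, Gm2824, Eml1, Col11a1 and Kcnip2, with ratios of 0.241 to 0.322.

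Within the same filter, Rspo3, Scg5, Apoe, Cd81 and Thsd7a were highest in BTBR against C57BL/6. Scg5, a secretory granule chaperone, had a ratio of 3.56 (2.45 to 5.37), and of 2.89 (2.74 to 3.05) in the other glutamatergic nuclei. The lowest, Galnt1, a glycosyltransferase gene that starts O-linked chains, was at 24.4 against 260 CPM, a ratio of 0.0938 (0.0641 to 0.135), and at 0.0681 (0.0606 to 0.0763) in the other glutamatergic nuclei. Rpgrip1, Iqgap2, Klhl7 and Mri1 followed at 0.170 to 0.232, and were also below C57BL/6 in the other glutamatergic nuclei, at 0.184, 0.483, 0.328 and 0.322.

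To describe how the 916 nuclei differ among themselves, they were clustered without the genes of the rule, which gave 7 subsets. Every gene of the clustered nuclei counts as used, so the subsets are described without tests and by their leading genes. Subset 1 held 377 nuclei, of which 84.6% had exactly 2 marker UMIs, and it took in 52 of the 71 C57BL/6 members (73.2%), 221 of the 423 of BTBR (52.2%) and 104 of the 422 of Nav1 KO (24.6%). Its leading genes were Prmt8, Fam135b and Muc15, and its levels of Tshz2 (38.8 CPM) and Gria3 (1334 CPM) were near those of the other glutamatergic nuclei. Reln (29.8 CPM) and Ms4a15 (3.48 CPM) lay above those nuclei, which had at most 19.9 and 1.59 CPM in a library. Both were far below subset 2 (498 and 194 CPM).

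Subsets 2, 3 and 6 carried the highest Doc2g, with Reln at 498, 530 and 715 CPM. Subset 2 (133 nuclei) was led by the mechanosensitive channel Piezo2, Vgll2 and Trdn. Subset 3 (122 nuclei, 91.8% with 4 or more marker UMIs) was led by Olfr112, Olfr114, Olfr116 and Barhl2 after 1 unnamed model. In it the 6 receptor genes of chromosome 17 summed to 1334 CPM (815 to 2060) in the 4 C57BL/6 nuclei, 1161 CPM (1049 to 1282) in the 82 of Nav1 KO and 25.0 CPM (5.15 to 73.0) in the 36 of BTBR. Subset 6 (69 nuclei) was led by Ebf1, at 1854 CPM against 21.7 CPM in the other subsets, Col23a1, Cpa6 and the semaphorin co-receptor Nrp2.

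Subset 4 (100 nuclei) differed in the markers themselves. Eomes was at 497 CPM and Cdhr1 at 612 CPM, but Doc2g was at 170 CPM against 1060 CPM in subset 2, and its leading genes were Ccn2, Pip5k1b, Tmem132d and the growth factor Igf1. A single nucleus of it came from C57BL/6, 62 from Nav1 KO and 37 from BTBR. Subset 5 (87 nuclei) was led by Slc7a11 and the astrocyte gene Slc1a3, with Ranbp3l, listed for meningeal fibroblasts, Pdgfrb, known from pericytes, and the astrocyte gene Aqp4 among its first 10, and 47.1% of its nuclei were among the tenth of their library with the highest doublet scores, against 5.00% to 14.3% in the other subsets. Subset 7 (28 nuclei, none from C57BL/6) was led by Ebf3, Edn1, Lhx1, Col27a1 and Trp73, with Trp73 at 90.4 CPM, Reln at 402 CPM and no Ms4a15 count. Its Vmn1r206 to Vmn1r209 level was 1127 CPM (888 to 1411) in 16 Nav1 KO nuclei and 590.5 CPM (355 to 922) in 12 BTBR nuclei.

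**Figure D5:**
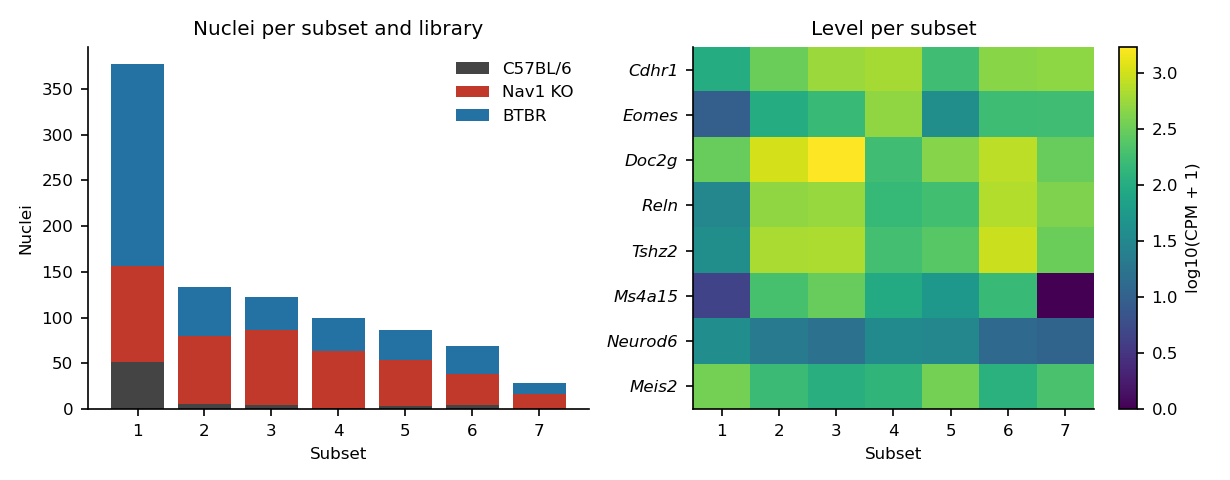
Number of marker-positive nuclei in each of the 7 subsets by library (left, stacked bars) and the level of 8 genes in each subset on a log10(CPM + 1) color scale (right). Subset 1 holds 377 nuclei, among them most of the C57BL/6 and BTBR members, with low Reln, Tshz2 and Ms4a15, and subset 4 combines high Eomes with low Doc2g.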

How the data were processed

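The authors deposited a filtered matrix of UMI counts for each library, made with Cell Ranger (6.0.0 per the labels) on the mm10 reference, and the values are whole counts of 32285 genes. Marker genes, lists and the rule were chosen with earlier results of these data known, and the limit of 4 UMIs was added after seeing the data. Where given, intervals are exact Clopper-Pearson for shares, exact Poisson for levels and binomial-split for ratios, all at 95%. Sums were tested in edgeR 4.0.16 (quasi-likelihood, TMM, filterByExpr, R 4.3.3), tested first on simulated data. Scrublet called at most 1 doublet in a library and was not used for calls, so the 10% of nuclei with the highest scores were left out as an alternative. Of the marker-positive nuclei 16.9%, 14.2% and 9.46% were among them in C57BL/6, Nav1 KO and BTBR. Subsets came from Leiden clustering in scanpy 1.11.5 (1000 variable genes, 15 components, resolution 0.5). Named genes were all listed genes, the 15 highest and 10 lowest called genes with 1 direction in all 3 libraries, the 5 highest and 5 lowest ratios between libraries and leading genes of subsets by fold. Positions are from GENCODE M21 on mm10. The libraries shared 61 to 71 barcodes in pairs, and no shared barcode met the rule in both. Some genes are not reported here.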

Additional observations from a re-analysis of the deposited data

Results flagged for a closer look

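Nuclei that the rule left out carried the same markers. With 4 or more marker UMIs but at least 1 UMI of Gad1, Gad2 or Slc32a1 there were 146 nuclei in Nav1 KO and 166 in BTBR against 10 in C57BL/6. Their median depth was 7344.5 and 11319.5 UMIs in Nav1 KO and BTBR, above that of the marker-positive nuclei, and 66 and 42 of them had a single GABA marker UMI. Reln was at 232 and 147 CPM, Tshz2 at 278 and 257 CPM, and Meis2 at 640 and 795 CPM in them. Of these nuclei 27.4% in Nav1 KO and 10.8% in BTBR had doublet scores in the top 10%, and the part of doublets was not tested.

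Outside the filters on genes and mitochondrial counts, 5 nuclei of Nav1 KO and 2 of BTBR met the marker rule, and none of C57BL/6. The 3′ counts of Nav1 had a Nav1 KO to C57BL/6 ratio of 1.21 (1.05 to 1.40) in the marker-positive nuclei and of 0.651 (0.626 to 0.676) in the other glutamatergic nuclei. The marker-positive nuclei were of unlike make-up, with exactly 2 marker UMIs in 69.0% of those of C57BL/6 and 36.7% of those of Nav1 KO. With exactly 2 UMIs Nav1 was lower in Nav1 KO, at 405 against 515 CPM, and at 4 or more UMIs the ratio was 1.07 (0.837 to 1.39). The difference between the kinds of nuclei was not tested, since there was 1 library of each group.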

How the results depend on the processing

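The ratio of shares to C57BL/6 stayed above 1 under all alternatives run, from 2.17 to 18.6 in Nav1 KO and from 2.24 to 14.9 in BTBR. It was 12.6 and 8.50 at 3 or more marker UMIs, 15.8 and 9.26 at 4 or more, 2.17 and 2.24 at 1 or more, 13.7 and 13.0 with 2 different markers, 18.6 and 14.9 without Doc2g and 8.87 and 7.86 after thinning, in Nav1 KO and BTBR. Without Cdhr1 the BTBR ratio was 3.98. With no limit on GABA markers the ratios were 6.30 in Nav1 KO and 7.02 in BTBR. The causes were not tested.

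Genes called higher in edgeR numbered 198 and lower 264 against glutamatergic nuclei with Tshz2, 732 and 482 at 3 or more UMIs, 811 and 698 at 4 or more, 23 and 5 with exactly 2 and 223 and 4 with no replicate block. The lower calls were 31 against nuclei with 1 marker UMI, 99 within 2000 to 8000 UMIs and 6 in DESeq2. Leaving out each library in turn gave 176 to 484 higher and 16 to 86 lower. Changes that turned were Tshz2 (−1.20 against nuclei chosen for it), Cux2 (−0.18) with exactly 2 UMIs, Gria3 (0.038) and Tbr1 (0.16) against nuclei with Tshz2, and Tbr1 with exactly 2 UMIs (0.23) or without the Nav1 KO library (0.017, with −0.22 without BTBR as the other end of that range).

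For Nav1 KO against C57BL/6 the lower genes numbered 218 at 3 or more UMIs, 204 at 4 or more and 66 with TMM factors, and at 20 CPM and 10 counts 134 were higher and 289 lower, with 71 higher under TMM factors. For BTBR 64 were higher at 3 or more UMIs, and 155 higher and 259 lower at 20 CPM and 10 counts. These counts also leave out genes low in C57BL/6. The 14 C57BL/6 nuclei with 4 or more UMIs hold 71558 counts, so that 1 count of Chrm1 there is 14.0 CPM.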
